A study of Mus musculus with 25 samples.

Results

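HRas TbrKO tumours were compared with HRas tumours by RNA sequencing of cells sorted from grafted skin tumours of mice. The rule takes the libraries of these 2 genotypes, 2 against 2, from the deposited count table, which makes 4 of the 21 RNA libraries in a series of 25 samples. Each genotype had 1 library of cells with a high level and 1 library of cells with a low level of the surface integrin alpha 6, and this sort gate entered the test as a block. The series also holds skin stem cells at rest and after wounding and pooled ATAC-seq samples, and it was made to relate open chromatin to transcription in these states.

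The HRas TbrKO tumours were labelled with HRas and TbrKO together, and the HRas tumours with HRas and no TbrKO. All 4 libraries were labelled as female B6 mice, as grafted tumours and as GFP+ cells, with the GFP marking the tumour cells, and the protocol gives an adult age of postnatal day 60. The labels do not spell out Tbr, do not name the form of HRas, the promoter or the Cre that made either genotype, and do not say how many grafts or animals gave a library or what else a host carried. No label says that the libraries came from separate animals, and the spread behind the p-values is therefore that of these 4 libraries, part of which may be technical. The high-gate and low-gate libraries of a genotype are different cell fractions and not repeats of each other. Values of a genotype are given for the integrin-high library first and the integrin-low library after it.

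TGF-beta, the pathway whose receptors the gene symbols Tgfbr1 and Tgfbr2 stand for, signals through a pair of receptor kinases that phosphorylate Smad proteins. In skin it holds back the growth of keratinocytes, and in squamous cell carcinoma it is known for slower cycling and invasion at the tumour edge. Interferons bind receptors coupled to Jak kinases, and they switch on large families of GTPases, antiviral proteins and the machinery that presents antigen. Keratinocytes respond to wounding with their own alarm programme of keratins 6 and 16, small proline-rich proteins, S100 proteins and stefins.

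Each of the 4 libraries held between 22870131 and 27888423 counts, and 14231 autosomal or unplaced genes passed the low-count filter. Levels are CPM, counts scaled to the library size by TMM and to a common total, and a fold change is HRas TbrKO over HRas on the log2 scale with its standard error. At an adjusted p of at most 0.05 in edgeR's quasi-likelihood test, 857 genes were called, 6.02% of those tested. Of these, 599 were higher in HRas TbrKO (4.21%) and 258 were lower (1.81%). The counts of called list members given below are to be read against these shares. With upper-quartile scaling 1670 genes were called, 57.4% of them higher, against 69.9% with TMM. The median log2 fold change of all genes tested was 0.00. The fit had 1 residual degree of freedom, the calls rest on the gate block, and on simulated data of this design more of the calls were false than the threshold allows. An unadjusted p under 0.05 was found for 23.2% of all genes tested. Without the block, with the 2 TbrKO tumour libraries added, or without any 1 of the 4 libraries in that larger fit, edgeR called 0 genes. At an unadjusted p under 0.05 there were then 1007, 1655 and 460 to 1216 genes. DESeq2 called 921 genes in the same design (7.06% of those it tested), 246 without the block (1.84%), 398 with all 6 tumour libraries (2.83%), and 30 to 192 when 1 of the 4 libraries was left out of that fit. The fold changes themselves kept their sign in 851 to 857 of the called genes under these settings. The settings reuse the same libraries, so this count is a description. For 143 of the 857 (16.7%) the log2 fold change shrank below 50% of its size without 1 library in the larger fit. There the TbrKO tumours also set the gate effect, so the shrinkage does not come from the 4 libraries alone.

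All 599 genes called higher and all 258 called lower had that direction in both gates. Among the genes called higher, 432 had both HRas TbrKO libraries above both HRas libraries, and among those called lower, 231 had both below, against 18.6% and 17.2% of all genes tested. The calls require a difference, so these counts are a description. The median log2 ratio of the genes called higher was 0.97 in the integrin-high gate and 1.24 in the integrin-low gate. For the genes called lower it was -1.02 in the integrin-high gate and -0.82 in the integrin-low gate.

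**Figure D1:**
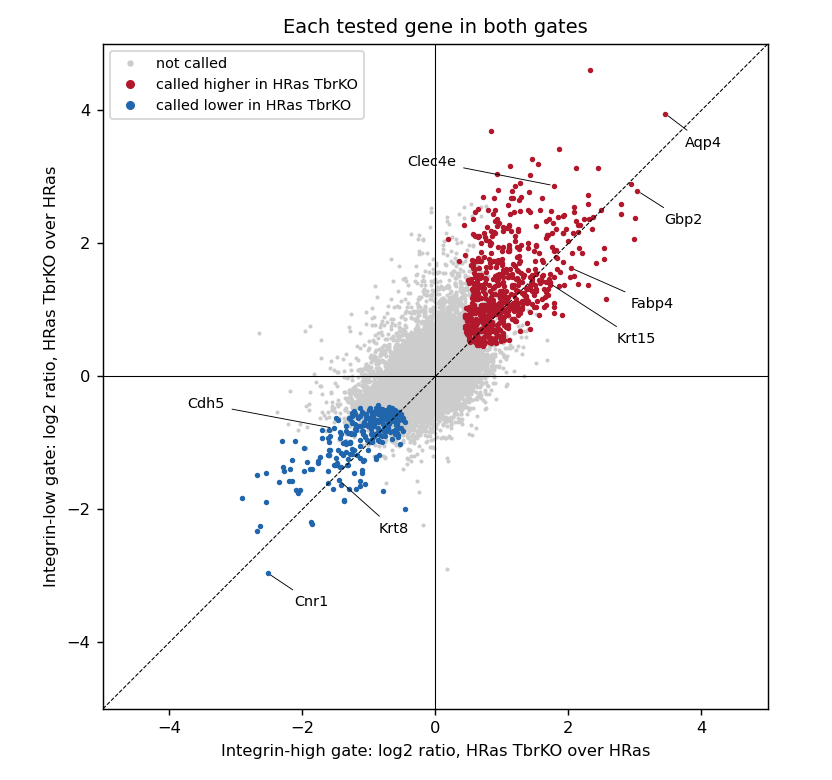
Each point is 1 tested gene, with its log2 ratio of HRas TbrKO over HRas in the integrin-high gate on the x axis and in the integrin-low gate on the y axis (0.5 CPM added to each level). The genes called higher (599) and lower (258) lie in the upper right and lower left, and the dashed line marks equal ratios in both gates.

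The genes for TGF-beta receptors were measured first, as a check of the label. Tgfbr2, the receptor that binds the ligand, had 229.8 and 251 CPM in HRas TbrKO, against 212 and 241 CPM in HRas tumours (log2 fold change 0.09 ± 0.12, adjusted p = 0.706). Tgfbr1, the partner kinase, had 68.9 and 95.5 CPM in HRas TbrKO, against 91.1 and 105 CPM in HRas (log2 fold change -0.27 ± 0.13, adjusted p = 0.282), and Tgfbr3, a co-receptor without a kinase, had 9.20 and 29.9 CPM in HRas TbrKO, against 10.5 and 32.1 CPM in HRas (log2 fold change -0.14 ± 0.16, adjusted p = 0.642). The groups overlapped for all 3 genes. Counts per gene do not show whether single exons are missing, so these values do not test the knockout. Hras had 297 and 235 CPM in HRas TbrKO, against 269.7 and 233 CPM in HRas (log2 fold change 0.08 ± 0.12, adjusted p = 0.747). Itga6, the integrin used for the gate, had 1805 and 994 CPM in HRas TbrKO, against 1863 and 1149 CPM in HRas (log2 fold change -0.13 ± 0.12, adjusted p = 0.575), with the high-gate library above the low-gate library in both genotypes.

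Of the 4 markers given for this comparison, Gbp2 and Iigp1 rose and Krt8 fell. Timp1 is X-linked and was left out with the other sex-linked genes. Gbp2 is a guanylate-binding protein and Iigp1 an immunity-related GTPase, both induced by interferon. Krt8 is a keratin of simple epithelia that squamous carcinomas can switch on.

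Interferon-inducible GTPases stood at the top of the comparison, with 16 of 18 tested members called higher, 0 called lower and a median log2 fold change of 2.21. These proteins coat vacuoles that hold microbes and help to break them open. Gbp2 had 50.4 and 93.2 CPM in HRas TbrKO, against 5.67 and 13.0 CPM in HRas tumours. Both HRas TbrKO libraries lay above both HRas libraries, by 8.89-fold in the integrin-high gate and 7.14-fold in the integrin-low gate (log2 fold change 2.98 ± 0.16, adjusted p = 0.00218).

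Iigp1 had 30.2 and 42.9 CPM in HRas TbrKO, against 3.32 and 7.84 CPM in HRas (log2 fold change 2.79 ± 0.22, adjusted p = 0.00322). Igtp, another immunity-related GTPase, had 14.0 and 31.7 CPM in HRas TbrKO, against 2.07 and 5.17 CPM in HRas (log2 fold change 2.68 ± 0.19, adjusted p = 0.00295). Ifi47, of the same family, had 8.93 and 24.4 CPM in HRas TbrKO, against 1.64 and 4.63 CPM in HRas (log2 fold change 2.42 ± 0.21, adjusted p = 0.00373). The groups did not overlap for any of these 3 genes, and in both genotypes the integrin-low library was the higher one. Irgm1, a regulator of that family, had 22.7 and 33.6 CPM in HRas TbrKO, against 8.49 and 13.0 CPM in HRas (log2 fold change 1.39 ± 0.16, adjusted p = 0.00691). Gbp4 had 11.5 and 28.8 CPM in HRas TbrKO, against 2.68 and 6.04 CPM in HRas (log2 fold change 2.18 ± 0.19, adjusted p = 0.00373), and Gbp5, which also takes part in inflammasome activation, had 2.96 and 20.7 CPM in HRas TbrKO, against 1.03 and 2.78 CPM in HRas (log2 fold change 2.34 ± 0.36, adjusted p = 0.0164). The rise of Gbp5 was 7.44-fold in the integrin-low gate and 2.86-fold in the integrin-high gate.

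Tgtp1 and Tgtp2, which are nearly identical T cell-specific GTPases, rested on 3 and 7 reads each in the HRas libraries. Tgtp1 had 4.16 and 5.08 CPM in HRas TbrKO, against 0.107 and 0.253 CPM in HRas, and Tgtp2 had 2.12 and 3.30 CPM in HRas TbrKO, against 0.107 and 0.253 CPM in HRas. Reads of these copies, and of the closely related Gbp genes, may have been split or lost in the authors' counting. Gbp10 had 0.808 and 1.18 CPM in HRas TbrKO, against 0.0357 and 0.0723 CPM in HRas, on 1 and 2 reads in HRas. Mx1, an antiviral GTPase, had 3.62 and 5.22 CPM in HRas TbrKO, against 1.07 and 2.96 CPM in HRas and did not pass (log2 fold change 1.24 ± 0.33, adjusted p = 0.0796), and Mx2 had 1.73 and 2.49 CPM in HRas TbrKO, against 0.607 and 1.55 CPM in HRas (log2 fold change 1.04 ± 0.37, adjusted p = 0.154). Of the 2 members below the filter, Gbp11 had 7 and 13 reads in HRas TbrKO and 0 and 1 in HRas, and Gvin1 was listed at 0 in all 4 libraries. By DESeq2 with all 6 tumour libraries, 11 members of the list were called higher, and without 1 of the 4 libraries 4 to 8 were.

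**Figure D2:**
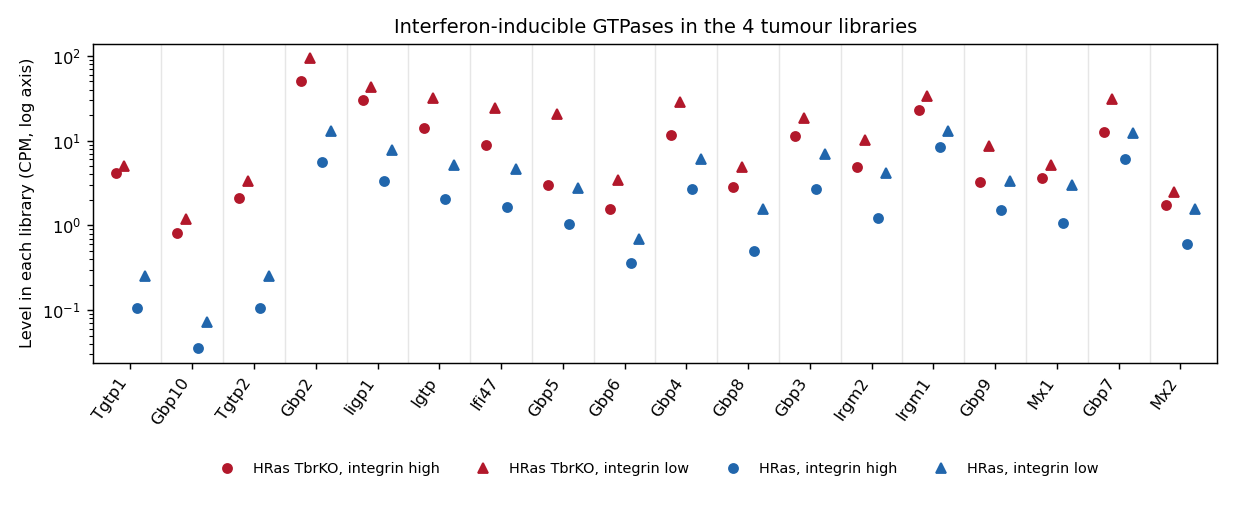
The level of each tested interferon-inducible GTPase in the 4 libraries, in CPM on a log axis, with HRas TbrKO in red left of HRas in blue, circles for the integrin-high and triangles for the integrin-low gate. For Gbp2 the HRas TbrKO libraries lie at 50.4 and 93.2 CPM and the HRas libraries at 5.67 and 13.0 CPM; levels should be compared within a gene, since CPM are not corrected for gene length.

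Interferon acts on such genes through short DNA elements near their start, and the upstream sequences of 4 members are shown to see where these elements lie. Sequences are from RefSeq on the build GRCm38.p6, 5′ to 3′ on the gene's strand, and cover the 250 bases before the annotated start. Capitals mark 2 motifs searched on both strands, the interferon-stimulated response element GAAANNGAAA (read as TTTCNNTTTC on the other strand) and the gamma-activated site TTCNNNGAA.
Gbp2 (chr3:142620413-142620662, plus strand): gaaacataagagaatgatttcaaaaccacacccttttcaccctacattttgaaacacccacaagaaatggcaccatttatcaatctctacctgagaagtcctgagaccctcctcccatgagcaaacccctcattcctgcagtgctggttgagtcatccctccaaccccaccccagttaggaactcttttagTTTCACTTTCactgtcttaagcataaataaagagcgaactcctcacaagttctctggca
Igtp (chr11:58199306-58199555, plus strand): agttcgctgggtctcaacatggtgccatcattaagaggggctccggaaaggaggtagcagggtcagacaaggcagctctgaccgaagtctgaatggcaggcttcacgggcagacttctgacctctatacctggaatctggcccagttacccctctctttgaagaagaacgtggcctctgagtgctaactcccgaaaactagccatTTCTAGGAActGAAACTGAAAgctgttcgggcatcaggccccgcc
Irgm1 (chr11:48871421-48871670, minus strand): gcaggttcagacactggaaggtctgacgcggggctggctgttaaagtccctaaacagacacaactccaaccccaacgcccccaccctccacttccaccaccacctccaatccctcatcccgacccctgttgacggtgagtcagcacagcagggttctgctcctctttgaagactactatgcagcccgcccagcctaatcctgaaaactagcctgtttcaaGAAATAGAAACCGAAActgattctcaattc
Ifi47 (chr11:49076337-49076586, plus strand): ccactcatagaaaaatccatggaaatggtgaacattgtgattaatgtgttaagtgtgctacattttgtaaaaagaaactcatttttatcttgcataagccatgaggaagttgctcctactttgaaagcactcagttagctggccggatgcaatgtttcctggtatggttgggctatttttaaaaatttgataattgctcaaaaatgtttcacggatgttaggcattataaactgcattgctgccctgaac

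Gbp2 had 1 response element, 59 to 50 bases before the start and on the opposite strand. Igtp had 1 response element 34 to 25 bases before the start and 1 gamma-activated site 45 to 37 bases before it. Irgm1 had 2 overlapping response elements, which together ran from 30 to 15 bases before the start. Ifi47 had no match to either motif in this window. Of 18 tested GTPases, 10 had a promoter in the table, and 9 of these 10 held a response element and 6 a gamma-activated site in at least 1 window. Over all 32851 windows of this length, 2.98% held the response element and 7.02% the gamma-activated site. Among the genes called higher with a window, 40 of 422 (9.5%) held the response element, among those called lower 7 of 184 (3.8%), and among all genes tested 3.2%. A match describes the letters of the window and is not evidence that a factor was bound.

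Open chromatin had been measured in the series in 1 pooled sample of integrin-high tumour stem cells from HRas carcinomas on a CD1/B6 mixed background, and not in HRas TbrKO tumours. The authors' caller, MACS2, gave 54201 peaks there. A peak overlapped the window from 250 bases before to 50 after the start, by at least 1 base, in 217 of 422 genes called higher (51.4%) and in 109 of 184 genes called lower (59.2%), against 74.0% of all genes tested that had a window. Among the GTPases, 4 of 10 had such a peak. Gbp2 had a peak with a fold enrichment of 5.57 over the local background and a summit pileup of 23 fragments, both as the authors deposited them, and that of Irgm1 had a fold enrichment of 4.70 and a pileup of 33.0. Igtp and Ifi47 had no peak over the window. With 1 pooled sample there is no error on these values.

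Interferon effectors outside the GTPases rose as a smaller share, with 17 of 43 tested members called higher, 1 called lower and a median log2 fold change of 0.95. Rsad2, the antiviral enzyme viperin, had 4.66 and 47.3 CPM in HRas TbrKO, against 1.39 and 4.45 CPM in HRas (log2 fold change 2.75 ± 0.38, adjusted p = 0.0118). Isg15, a ubiquitin-like modifier, had 8.70 and 46.4 CPM in HRas TbrKO, against 2.60 and 7.74 CPM in HRas (log2 fold change 2.21 ± 0.24, adjusted p = 0.00644). Both were highest in the integrin-low library of HRas TbrKO, which stood far above the other 3 libraries. Zbp1, a sensor of Z-form nucleic acid, had 12.5 and 20.5 CPM in HRas TbrKO, against 1.75 and 5.71 CPM in HRas (log2 fold change 2.29 ± 0.28, adjusted p = 0.00801), with both HRas TbrKO libraries above both HRas libraries. Ifit3 had 2.00 and 4.05 CPM in HRas TbrKO, against 0.285 and 0.578 CPM in HRas (log2 fold change 2.79 ± 0.37, adjusted p = 0.00972). Oas2, which makes the second messenger that activates RNase L, had 4.58 and 19.4 CPM in HRas TbrKO, against 1.64 and 6.15 CPM in HRas (log2 fold change 1.58 ± 0.22, adjusted p = 0.0118). Slfn2, a regulator of T cell and myeloid quiescence, had 68.9 and 303 CPM in HRas TbrKO, against 23.7 and 77.4 CPM in HRas (log2 fold change 1.76 ± 0.15, adjusted p = 0.00373), with overlapping groups. Lgals9, the lectin galectin-9, was the member that fell, with 35.3 and 62.6 CPM in HRas TbrKO, against 84.7 and 92.1 CPM in HRas (log2 fold change -0.91 ± 0.18, adjusted p = 0.0369). Ifitm3, an antiviral membrane protein, had 249 and 217 CPM in HRas TbrKO, against 193 and 176 CPM in HRas and did not pass (adjusted p = 0.157).

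Among sensors, receptors and transcription factors of interferon signalling, 5 of 28 tested members were called higher and 0 lower, with a median log2 fold change of 0.38. Irf7 had 21.4 and 38.6 CPM in HRas TbrKO, against 13.6 and 17.0 CPM in HRas (log2 fold change 0.92 ± 0.19, adjusted p = 0.0365), and Irf9, a factor that binds the response element, had 27.1 and 40.0 CPM in HRas TbrKO, against 16.4 and 22.6 CPM in HRas (log2 fold change 0.77 ± 0.15, adjusted p = 0.0323). Batf2 had 0.847 and 2.17 CPM in HRas TbrKO, against 0.143 and 0.398 CPM in HRas (log2 fold change 2.47 ± 0.45, adjusted p = 0.0268), and Tlr2, a receptor for bacterial lipoproteins, had 20.2 and 103 CPM in HRas TbrKO, against 10.7 and 30.6 CPM in HRas (log2 fold change 1.36 ± 0.21, adjusted p = 0.0166). Irf1 had 105 and 166 CPM in HRas TbrKO, against 84.6 and 101 CPM in HRas and did not pass (log2 fold change 0.51 ± 0.14, adjusted p = 0.0927), though its groups did not overlap. The interferon transcripts themselves were near the limit of detection. Ifng had 3 and 15 reads in HRas TbrKO and 0 and 3 reads in HRas, and Ifnb1 had 4 and 21 reads in HRas TbrKO and 2 and 1 reads in HRas, counts too low for a fold change.

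Genes of antigen presentation followed, with 9 of 25 tested members called higher, 0 lower and a median log2 fold change of 0.49. H2-K1, a class I heavy chain, had 351 and 559 CPM in HRas TbrKO, against 215 and 302 CPM in HRas (log2 fold change 0.80 ± 0.12, adjusted p = 0.0163). B2m, its light chain, had 588 and 877 CPM in HRas TbrKO, against 305 and 577 CPM in HRas (log2 fold change 0.78 ± 0.13, adjusted p = 0.0235). Tap1, which pumps peptides into the endoplasmic reticulum, had 46.3 and 69.0 CPM in HRas TbrKO, against 26.7 and 38.7 CPM in HRas (log2 fold change 0.81 ± 0.13, adjusted p = 0.0166). Psmb8, a subunit of the immunoproteasome, had 33.4 and 44.0 CPM in HRas TbrKO, against 16.3 and 28.6 CPM in HRas (log2 fold change 0.82 ± 0.16, adjusted p = 0.035). The groups did not overlap for these 4 genes. H2-Q4 and H2-T23, class I genes outside the classical set, rose by 0.96 and 0.82 on the log2 scale, and reads of class I genes can be shared between copies. Cd274, the checkpoint ligand PD-L1, had 22.7 and 285 CPM in HRas TbrKO, against 9.88 and 40.8 CPM in HRas (log2 fold change 2.06 ± 0.35, adjusted p = 0.0223), and its high level lay in the integrin-low library of HRas TbrKO alone. The class II genes H2-Aa, H2-Ab1 and H2-Eb1 did not pass, with H2-Aa at 113 and 323 CPM in HRas TbrKO, against 61.2 and 301 CPM in HRas (adjusted p = 0.194). By DESeq2 with all 6 tumour libraries, 9 interferon effectors, 3 sensors and factors and 2 antigen presentation genes were called higher. With the 4 libraries alone and no gate block, DESeq2 called 0, 1 and 1 of these lists higher. When any 1 of the 4 libraries was left out of the larger fit, fewer of each list were called higher than with all 6.

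Markers of white blood cells were higher too, more so in the integrin-low gate. The summed level of 18 leukocyte markers was 438 and 1743 CPM in HRas TbrKO and 342 and 777 CPM in HRas, so HRas TbrKO was 1.28-fold higher in the integrin-high gate and 2.24-fold higher in the integrin-low gate. Of 14 tested leukocyte markers, 4 were called higher and 0 lower, with overlapping groups for each. The summed level of 21 neutrophil markers, a list added after the data were seen, was 734 and 3820 CPM in HRas TbrKO and 650.0 and 1218 CPM in HRas, 1.13-fold and 3.14-fold higher in the high and low gate, and 13 of 19 were called higher and 0 lower. By DESeq2, 6 were called higher with all 6 tumour libraries and 0 without the gate block. In the integrin-high gate most of this sum was Ltf (363 CPM in HRas TbrKO, 276 CPM in HRas) and Padi4 (177 CPM in HRas TbrKO, 204 CPM in HRas). Mmp9 (27.9 CPM in HRas TbrKO, 67.9 CPM in HRas) and Cxcr2 (28.5 CPM in HRas TbrKO, 40.9 CPM in HRas) were also lower there. Of the 19 tested markers, 14 were higher in both gates and 1 lower in both. Their median log2 ratio was 0.77 in the integrin-high gate and 2.15 in the integrin-low gate. Clec4e, a receptor of neutrophils and macrophages, had 34.8 and 574 CPM in HRas TbrKO, against 9.78 and 78.0 CPM in HRas (log2 fold change 2.39 ± 0.25, adjusted p = 0.00567), 3.55-fold and 7.36-fold higher in the high and low gate. Fpr2, a formyl peptide receptor, was 4.69-fold and 6.83-fold higher, with 2.85 and 46.9 CPM in HRas TbrKO, against 0.607 and 6.87 CPM in HRas. The T cell marker Cd3e had 0.115 and 1.22 CPM in HRas TbrKO, against 0 and 0.253 CPM in HRas. Cd3g had 0.231 and 3.62 CPM in HRas TbrKO, against 0.178 and 1.16 CPM in HRas. Nkg7 had 0.231 and 2.07 CPM in HRas TbrKO, against 0.0357 and 0.542 CPM in HRas. Cd4 had 1.00 and 5.60 CPM in HRas TbrKO, against 2.11 and 2.93 CPM in HRas. These markers were low, but each was higher in HRas TbrKO in the integrin-low gate. The B cell marker Ms4a1 had at most 0.0471 CPM in any of the 4 libraries. In the integrin-high gate, where the leukocyte sum was 1.28-fold higher and the neutrophil median 0.77, Gbp2 was 8.89-fold and Igtp 6.75-fold higher, and the median log2 ratio of the GTPases was 1.69, against 1.64 in the integrin-low gate. For the interferon effectors these medians were 0.50 in the integrin-high gate and 1.01 in the integrin-low gate. The part of white blood cells in the interferon genes was not tested beyond these values. In bulk samples, more cells of a type and more RNA per cell cannot be told apart.

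**Figure D3:**
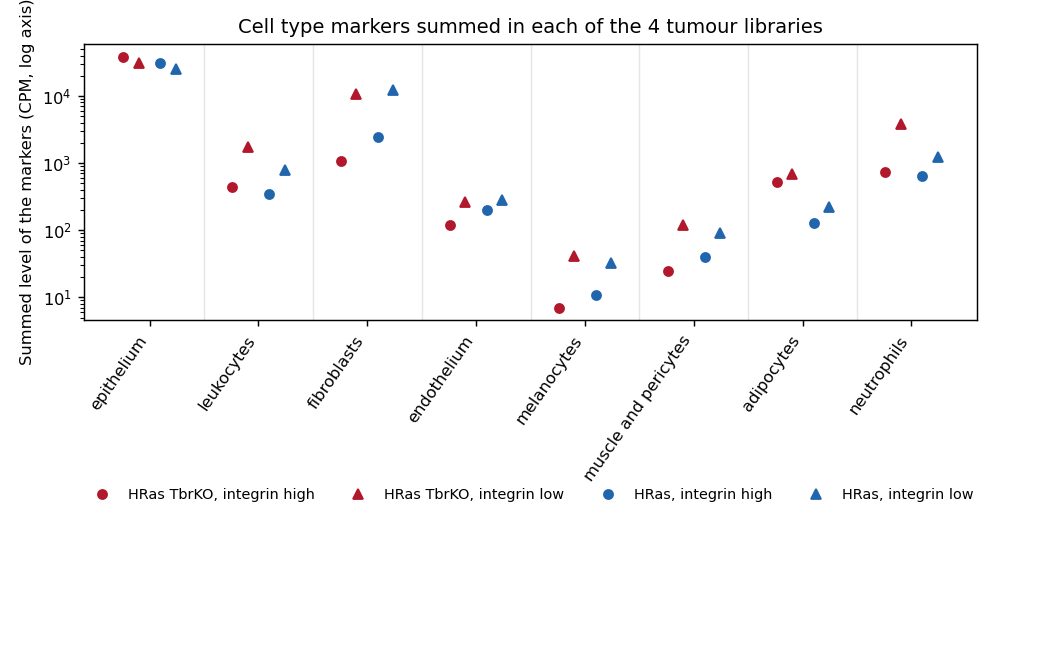
The summed level of the markers of each cell type in the 4 libraries, in CPM on a log axis, with HRas TbrKO in red left of HRas in blue, circles for the integrin-high and triangles for the integrin-low gate. The neutrophil sum reaches 3820 CPM in the integrin-low HRas TbrKO library, against 1218 CPM in the integrin-low HRas library, and fibroblast markers lie mostly in the integrin-low libraries of both genotypes.

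The other marker lists set the frame for the epithelial genes. The 5 epithelial markers (Krt5, Krt14, Trp63, Epcam and Cdh1) summed to 38598 and 31317 CPM in HRas TbrKO and 31282 and 25343 CPM in HRas. Epithelial markers were thus high in all 4 libraries, and the integrin-low libraries held much RNA of fibroblast marker genes beside them. Whether fibroblasts or the GFP+ tumour cells made this RNA was not tested. The 10 fibroblast markers summed to 1056 and 10784 CPM in HRas TbrKO and 2409 and 12319 CPM in HRas, 0.438-fold and 0.875-fold in the high and low gate. The 7 endothelial markers summed to 120.3 and 263 CPM in HRas TbrKO and 203 and 286 CPM in HRas. Of the fibroblast markers 2 of 10 were called lower (Dcn and Lum), and of the endothelial markers 1 of 7 (Cdh5). Melanocyte markers summed to 41.0 CPM or less, markers of muscle and pericytes to 121 CPM or less with 1 of 8 called (Acta1, lower), and the haemoglobin genes were listed at 0.

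The keratins of simple epithelia split, with 2 of 7 tested members called higher and 2 lower. Krt8 had 86.4 and 114 CPM in HRas TbrKO, against 238 and 337 CPM in HRas tumours, 0.364-fold and 0.339-fold in the high and low gate (log2 fold change -1.51 ± 0.12, adjusted p = 0.00334). Its partner Krt18 had 204 and 196 CPM in HRas TbrKO, against 381 and 456 CPM in HRas (log2 fold change -1.06 ± 0.13, adjusted p = 0.00864). Both HRas TbrKO libraries lay below both HRas libraries for this pair, which form a filament together. Krt19, a keratin of simple epithelia and of follicle cells, had 644 and 526 CPM in HRas TbrKO, against 352 and 237 CPM in HRas (log2 fold change 1.01 ± 0.13, adjusted p = 0.00931). In the fit of all tumour libraries without the integrin-high HRas TbrKO library, its log2 fold change was 0.07 by edgeR and 0.03 by DESeq2. That fit takes the gate effect partly from the TbrKO tumours, where Krt19 had 4.10 and 30.3 CPM. Within the integrin-low gate alone, Krt19 was 2.22-fold higher in HRas TbrKO than in HRas. Krt23 had 5.0 and 32.1 CPM in HRas TbrKO, against 1.82 and 6.51 CPM in HRas (log2 fold change 1.95 ± 0.26, adjusted p = 0.0102), with overlapping groups. Krt7 had 14.3 and 40.8 CPM in HRas TbrKO, against 29.6 and 30.9 CPM in HRas, and did not pass (log2 fold change -0.31 ± 0.32, adjusted p = 0.615). In DESeq2 with all 6 tumour libraries, 1 member was called in each direction.

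Genes of the basal layer also moved both ways, with 2 of 17 tested members called higher and 4 lower. Lamb3 and Lama3, laminin chains that help to anchor basal keratinocytes to the basement membrane, fell together. Lamb3 had 978 and 860.4 CPM in HRas TbrKO, against 1866 and 1600 CPM in HRas (log2 fold change -0.91 ± 0.12, adjusted p = 0.00904). Lama3 had 1405 and 1167 CPM in HRas TbrKO, against 2111 and 1929 CPM in HRas (log2 fold change -0.66 ± 0.12, adjusted p = 0.0264). The groups did not overlap for either chain. Plec, the linker plectin that ties keratin to hemidesmosomes, had 295 and 268 CPM in HRas TbrKO, against 564 and 387 CPM in HRas (log2 fold change -0.73 ± 0.14, adjusted p = 0.0329). Krt15, a keratin of basal and follicle stem cells, had 434 and 289.8 CPM in HRas TbrKO, against 131 and 109 CPM in HRas (log2 fold change 1.57 ± 0.14, adjusted p = 0.00373), and Krt14 had 21087 and 17942 CPM in HRas TbrKO, against 14703 and 12587 CPM in HRas (log2 fold change 0.52 ± 0.11, adjusted p = 0.0427). Krt5, the partner of Krt14, did not pass, with 16160 and 11996 CPM in HRas TbrKO, against 15159 and 11381 CPM in HRas (log2 fold change 0.08 ± 0.11, adjusted p = 0.694). Itgb1, the beta 1 integrin chain, had 1725 and 1299 CPM in HRas TbrKO, against 2339 and 2023 CPM in HRas (log2 fold change -0.54 ± 0.12, adjusted p = 0.0509), just outside the threshold and with both HRas TbrKO libraries below both HRas libraries.

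Other matrix genes went the same way as these laminin chains, with 0 of 24 tested members called higher, 6 lower and a median log2 fold change of -0.63. Their median log2 ratio was -0.86 in the integrin-high gate and only -0.26 in the integrin-low gate. DESeq2 called 15 lower in the same design, 1 with all 6 tumour libraries and 0 to 1 without 1 library. Col18a1, a collagen of basement membranes, had 981 and 825 CPM in HRas TbrKO, against 1596 and 1348 CPM in HRas (log2 fold change -0.70 ± 0.12, adjusted p = 0.0199), and Lamb1, a laminin chain, had 259 and 301 CPM in HRas TbrKO, against 434 and 452 CPM in HRas (log2 fold change -0.67 ± 0.12, adjusted p = 0.0281). Itga2, a collagen-binding integrin chain, had 26.9 and 18.2 CPM in HRas TbrKO, against 49.3 and 35.7 CPM in HRas (log2 fold change -0.92 ± 0.14, adjusted p = 0.0158). For these 3 genes the groups did not overlap. Sparc and the glycoprotein tenascin C (Tnc) were higher in the integrin-low libraries of both genotypes, as fibroblast genes were, and fell by 0.64 and 0.65 on the log2 scale with overlapping groups. The fibroblast sum was also lower in HRas TbrKO, and its part in the matrix genes was not tested. Without the integrin-low HRas library, in the fit of all tumour libraries, the log2 fold change of Tnc turned to 0.23 by edgeR and 0.24 by DESeq2. That fit takes the gate effect partly from the TbrKO tumours. Within the integrin-high gate alone, Tnc in HRas TbrKO was 0.645-fold of HRas.

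None of the 27 ligands, receptors and signalling genes of the TGF-beta pathway was called in either direction by edgeR with TMM scaling and the low-count filter, nor by DESeq2 in the same design. With upper-quartile scaling edgeR called 2 lower, and with no low-count filter 1 higher and 5 lower. An unadjusted p under 0.05 was found for 6 of the 27, near the 23.2% of all genes tested, and their median log2 fold change was -0.13. Smad7, the feedback inhibitor, had 33.6 and 45.5 CPM in HRas TbrKO, against 47.1 and 47.9 CPM in HRas (log2 fold change -0.28 ± 0.15, adjusted p = 0.323), and Tgfb1 had 104 and 131 CPM in HRas TbrKO, against 107 and 94.4 CPM in HRas (log2 fold change 0.22 ± 0.15, adjusted p = 0.459). Of 27 TGF-beta targets, 3 were called lower and 1 higher, with a median log2 fold change of -0.47 and 17 members lower in both gates, against 34.2% of all genes tested. Their median log2 ratio was -0.61 in the integrin-high gate and only -0.14 in the integrin-low gate. DESeq2 called 7 lower in the same design and 0 with all 6 tumour libraries, and edgeR called 11 lower with upper-quartile scaling and 14 with no low-count filter. Hmga2, a chromatin protein, had 351 and 282 CPM in HRas TbrKO, against 535 and 439 CPM in HRas (log2 fold change -0.62 ± 0.12, adjusted p = 0.0309). Igfbp3, which binds insulin-like growth factors, had 2332 and 1945 CPM in HRas TbrKO, against 1372 and 1102 CPM in HRas (log2 fold change 0.79 ± 0.12, adjusted p = 0.0139). Other well-known targets did not pass, among them Thbs1 with 433 and 874 CPM in HRas TbrKO, against 1035 and 1122 CPM in HRas (adjusted p = 0.0762) and Ctgf with 27.0 and 91.9 CPM in HRas TbrKO, against 44.3 and 109 CPM in HRas (adjusted p = 0.122). Several targets, such as Fn1, Postn and Ctgf, had more RNA in the integrin-low libraries, which also had a higher sum of the fibroblast markers.

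**Figure D4:**
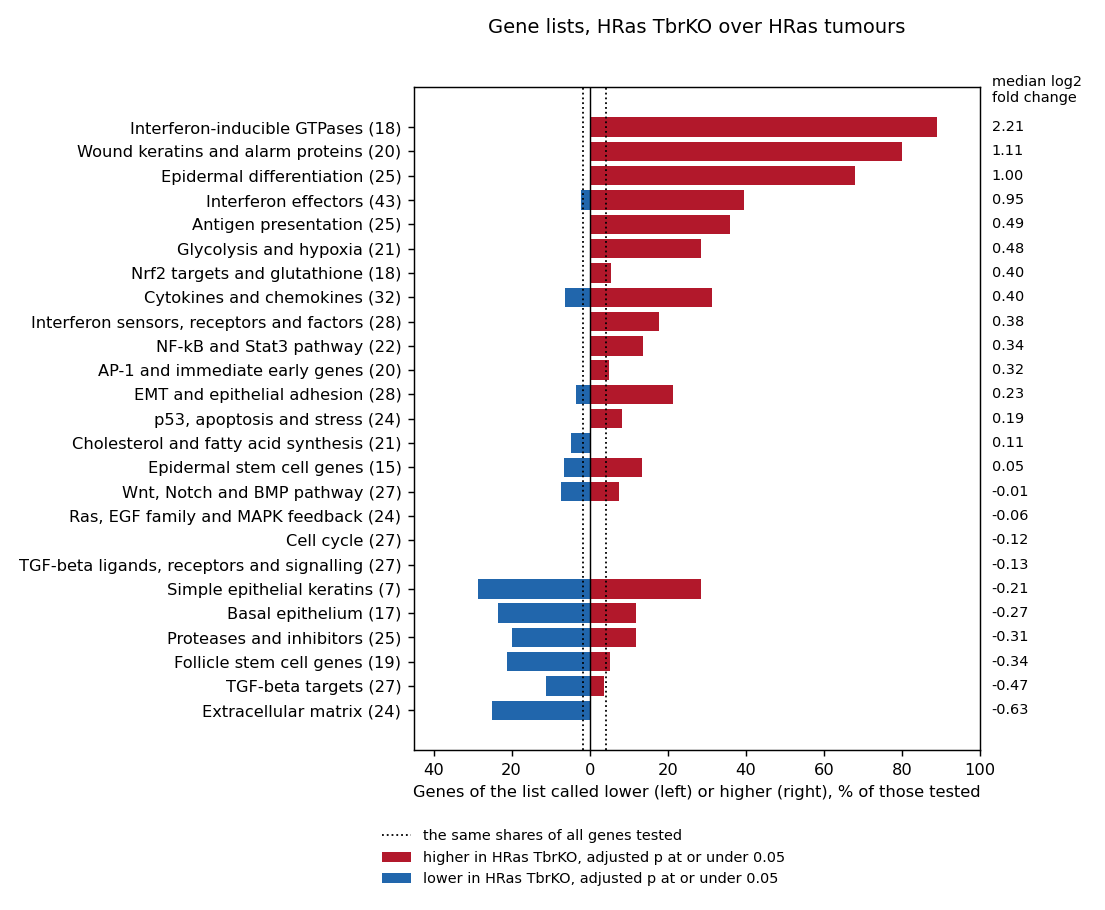
The share of each gene list, in percent of its tested members (number in brackets), called higher (red, to the right) and lower (blue, to the left) in HRas TbrKO over HRas tumours at an adjusted p of at most 0.05, with the median log2 fold change at the right. The dotted lines mark the same shares over all genes tested, 4.21% and 1.81%; 16 of 18 interferon-inducible GTPases lie at the top and the extracellular matrix list at the bottom.

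Wound keratins and alarm proteins rose broadly, with 16 of 20 tested members called higher, 0 lower and a median log2 fold change of 1.11. Krt6b, a keratin of activated keratinocytes, had 1957 and 3036 CPM in HRas TbrKO, against 681 and 1046 CPM in HRas (log2 fold change 1.53 ± 0.12, adjusted p = 0.00322). Krt16, its partner type, had 2934 and 3351 CPM in HRas TbrKO, against 1465 and 1827 CPM in HRas (log2 fold change 0.94 ± 0.12, adjusted p = 0.00843), and Krt6a had 9035 and 8305 CPM in HRas TbrKO, against 6132 and 5204 CPM in HRas (log2 fold change 0.62 ± 0.11, adjusted p = 0.0282). The groups did not overlap for these keratins, and the ratios were close in both gates. Krt17, of the same wound set, had 2703 and 2401 CPM in HRas TbrKO, against 2622 and 2384 CPM in HRas, a log2 fold change of 0.03 with an adjusted p of 0.915.

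The small proline-rich proteins, which are cross-linked into the cornified envelope, were among the largest changes. Sprr2f had 46.1 and 202 CPM in HRas TbrKO, against 8.06 and 22.7 CPM in HRas (log2 fold change 2.85 ± 0.18, adjusted p = 0.00294). Sprr2d had 139 and 507 CPM in HRas TbrKO, against 38.3 and 95.9 CPM in HRas (log2 fold change 2.14 ± 0.16, adjusted p = 0.00322), and Sprr1a had 650.1 and 1162 CPM in HRas TbrKO, against 358 and 460.4 CPM in HRas (log2 fold change 1.10 ± 0.15, adjusted p = 0.0108). All HRas TbrKO libraries lay above all HRas libraries for these 3. The Sprr2 genes, like the stefins, are close copies, so reads may have been split among them. Stfa2, a stefin that inhibits cysteine proteases, had 20.9 and 51.9 CPM in HRas TbrKO, against 4.21 and 10.4 CPM in HRas (log2 fold change 2.31 ± 0.16, adjusted p = 0.00295).

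S100a9, a subunit of the antimicrobial complex calprotectin, had 603 and 2576 CPM in HRas TbrKO, against 151 and 632 CPM in HRas, and S100a8, its partner, had 240.0 and 873 CPM in HRas TbrKO, against 67.7 and 250.2 CPM in HRas. Each genotype's integrin-low library was the higher one, so the groups overlapped, but the ratios were close in both gates, at 3.99-fold and 4.08-fold for S100a9 (log2 fold change 2.01 ± 0.12, adjusted p = 0.00294) and 3.55-fold and 3.49-fold for S100a8 (log2 fold change 1.81 ± 0.12, adjusted p = 0.00294). Calprotectin and stefins are made by neutrophils as well as by keratinocytes, and the median log2 ratio of the neutrophil markers was 0.77 in the high gate and 2.15 in the low gate, with a sum 1.13-fold and 3.14-fold higher. The part of neutrophils was not tested. Lcn2, an iron-trapping protein of both cell types, had 7.50 and 86.8 CPM in HRas TbrKO, against 8.60 and 30.1 CPM in HRas and did not pass (adjusted p = 0.283). By DESeq2 with all 6 tumour libraries, 13 of the list were called higher, and 6 to 8 without 1 library.

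Epidermal differentiation genes rose too, but not the main suprabasal keratins. Of 25 tested members 17 were called higher and 0 lower, with a median log2 fold change of 1.00. Cnfn, a protein of the cornified envelope, had 66.0 and 202 CPM in HRas TbrKO, against 19.8 and 38.7 CPM in HRas (log2 fold change 2.07 ± 0.18, adjusted p = 0.00373). Sbsn, made in the suprabasal layers, had 413 and 608 CPM in HRas TbrKO, against 135 and 225 CPM in HRas (log2 fold change 1.53 ± 0.13, adjusted p = 0.00334). Spink5, an inhibitor of the proteases that shed the skin surface, had 1146 and 935 CPM in HRas TbrKO, against 445 and 412 CPM in HRas (log2 fold change 1.27 ± 0.12, adjusted p = 0.00486). Dmkn, a secreted protein of the same layers, had 1234 and 1308 CPM in HRas TbrKO, against 521 and 608 CPM in HRas (log2 fold change 1.17 ± 0.12, adjusted p = 0.00546). Both HRas TbrKO libraries lay above both HRas libraries for these 4 genes.

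The enzymes and factors of the same programme moved with them. Tgm1 and Tgm3, the transglutaminases that cross-link the envelope, rose by 1.04 and 1.13, the envelope protein involucrin (Ivl) by 0.86, and the barrier transcription factor Grhl3 by 1.00 on the log2 scale. Krt78 and Krt4, keratins of the same list, were called higher, by 1.26 and 1.24 on the log2 scale, and their groups did not overlap. The main suprabasal keratins Krt1 and Krt10 gave another picture, with lower HRas TbrKO values in the integrin-high gate and higher ones in the integrin-low gate. Krt1 had 94.7 and 845 CPM in HRas TbrKO, against 249 and 703 CPM in HRas (log2 fold change -0.56 ± 0.35, adjusted p = 0.396). Krt10, its partner, had 135 and 908 CPM in HRas TbrKO, against 255 and 709 CPM in HRas (log2 fold change -0.27 ± 0.27, adjusted p = 0.601). By DESeq2, 8 members of the list were called higher with all 6 tumour libraries and 1 to 4 without 1 library.

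**Figure D5:**
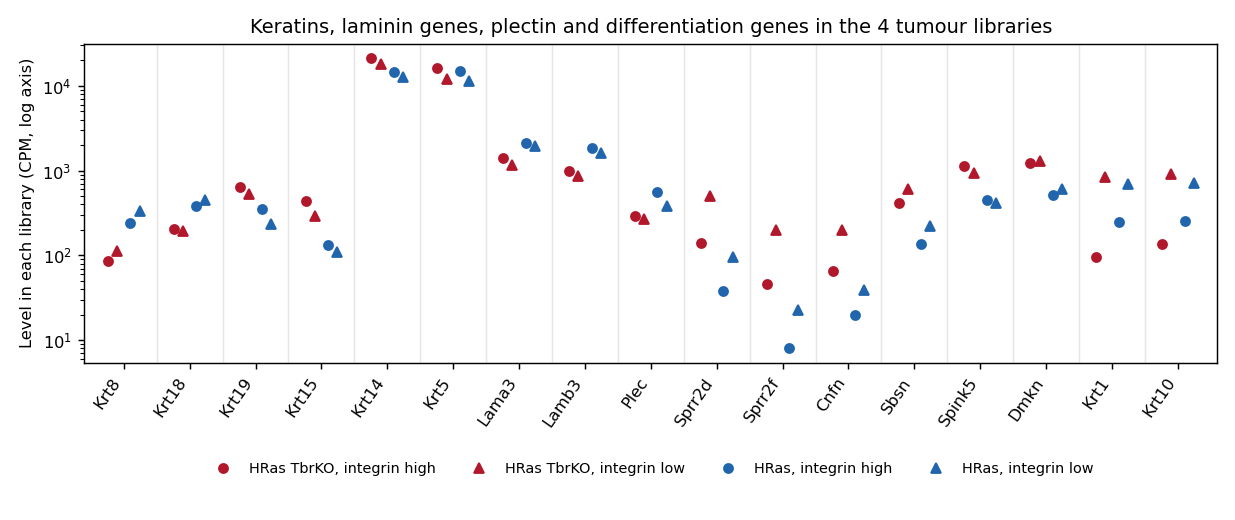
The level of keratins, the laminin chains Lama3 and Lamb3, plectin and differentiation genes in the 4 libraries, in CPM on a log axis, with HRas TbrKO in red left of HRas in blue, circles for the integrin-high and triangles for the integrin-low gate. Krt8, Krt18, the laminin chains and Plec lie lower in both HRas TbrKO libraries, while Krt15, Krt19 and the genes from Sprr2d to Dmkn lie higher; Krt5, Krt1 and Krt10 overlap.

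Cell adhesion genes added 6 of 28 tested members called higher and 1 lower, against 4.21% and 1.81% of all genes tested. The desmosomal cadherins Dsc2 and Dsc3 rose by 0.91 and 0.62, and the tight junction genes Cldn1 and Ocln by 0.85 and 1.04 on the log2 scale. Dsc2 had 492 and 597 CPM in HRas TbrKO, against 267 and 310.1 CPM in HRas (log2 fold change 0.91 ± 0.12, adjusted p = 0.00964). Cdh2, N-cadherin, was low in all 4 libraries and rose, with 4.93 and 4.33 CPM in HRas TbrKO, against 1.07 and 1.74 CPM in HRas (log2 fold change 1.74 ± 0.33, adjusted p = 0.0315). Epcam, an adhesion protein of simple epithelia and carcinomas, fell, with 347 and 362 CPM in HRas TbrKO, against 537 and 538 CPM in HRas (log2 fold change -0.60 ± 0.12, adjusted p = 0.0345). Cdh1, the main epithelial cadherin, had 648 and 733 CPM in HRas TbrKO, against 517 and 582 CPM in HRas (adjusted p = 0.155), and Vim, the mesenchymal filament vimentin, had 249 and 698 CPM in HRas TbrKO, against 331 and 762 CPM in HRas (adjusted p = 0.274). Cldn7 rose by 0.70 on the log2 scale. In the fit of all tumour libraries without the integrin-high HRas TbrKO library, its log2 fold change turned to -0.11 by edgeR and -0.08 by DESeq2. That fit takes the gate effect partly from the TbrKO tumours, and within the integrin-low gate alone Cldn7 was 1.51-fold higher in HRas TbrKO.

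Of 32 tested cytokines and chemokines 10 were called higher and 2 lower, with a median log2 fold change of 0.40. Cxcl9, an interferon-induced attractant of T cells, had 13.3 and 32.0 CPM in HRas TbrKO, against 1.50 and 4.92 CPM in HRas (log2 fold change 2.89 ± 0.21, adjusted p = 0.00301). Cxcl10, which binds the same receptor, had 9.51 and 19.5 CPM in HRas TbrKO, against 4.50 and 5.64 CPM in HRas (log2 fold change 1.45 ± 0.24, adjusted p = 0.0207). Tslp, an epithelial cytokine of allergic inflammation, had 12.9 and 10.1 CPM in HRas TbrKO, against 3.07 and 5.10 CPM in HRas (log2 fold change 1.52 ± 0.30, adjusted p = 0.0352). The groups did not overlap for these 3 genes. Il1rn, the antagonist of the interleukin 1 receptor, had 255 and 1108 CPM in HRas TbrKO, against 105 and 197 CPM in HRas (log2 fold change 1.89 ± 0.27, adjusted p = 0.0128). Il1b had 292 and 2573 CPM in HRas TbrKO, against 147 and 768 CPM in HRas (log2 fold change 1.37 ± 0.19, adjusted p = 0.0116) and the neutrophil attractant Cxcl2 had 265 and 3384 CPM in HRas TbrKO, against 153 and 594 CPM in HRas (log2 fold change 1.66 ± 0.37, adjusted p = 0.0497), and both stood highest in the integrin-low HRas TbrKO library, the library with the highest neutrophil sum. Lif, a cytokine of the interleukin 6 family, fell, with 63.1 and 64.2 CPM in HRas TbrKO, against 95.3 and 98.1 CPM in HRas (log2 fold change -0.60 ± 0.12, adjusted p = 0.0364). Cxcl1 had 399 and 417 CPM in HRas TbrKO, against 501 and 498 CPM in HRas and did not pass (adjusted p = 0.201).

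Proteases gave 3 of 25 tested members called higher and 5 lower, against 4.21% and 1.81% of all genes tested. Plau, the urokinase that activates plasminogen, had 331 and 431 CPM in HRas TbrKO, against 641 and 776 CPM in HRas (log2 fold change -0.90 ± 0.12, adjusted p = 0.0101). Adam12, a membrane metalloproteinase, had 36.8 and 80.1 CPM in HRas TbrKO, against 85.9 and 132 CPM in HRas (log2 fold change -0.97 ± 0.16, adjusted p = 0.0186). Both HRas TbrKO libraries lay below both HRas libraries for these genes. Mmp1a and Mmp1b, collagenases that are close copies, fell by 1.39 and 0.81 on the log2 scale. Ctss, a cathepsin of antigen-presenting cells, and Mmp12, a macrophage elastase, rose by 0.84 and 0.82 on the log2 scale with overlapping groups, beside the leukocyte sums given above.

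Genes that mark skin stem cells moved in small numbers, beside 4.21% called higher and 1.81% called lower among all genes tested. Of 19 follicle stem cell genes 1 was called higher (Krt15) and 4 lower. Npnt, a matrix protein of the bulge, had 2.66 and 4.80 CPM in HRas TbrKO, against 10.2 and 12.4 CPM in HRas (log2 fold change -1.64 ± 0.24, adjusted p = 0.0145), and Lgr6, an R-spondin receptor, had 21.9 and 26.5 CPM in HRas TbrKO, against 56.6 and 47.1 CPM in HRas (log2 fold change -1.10 ± 0.17, adjusted p = 0.0161). The factor Nfib fell by 0.64 and the secreted protein Dkk3 by 0.76 on the log2 scale, whereas Sox9, a master factor of the follicle, had 58.4 and 76.9 CPM in HRas TbrKO, against 94.0 and 93.3 CPM in HRas and did not pass (adjusted p = 0.105). Of 15 epidermal stem cell genes 2 were called higher and 1 lower. Grhl1, a barrier transcription factor, had 138 and 152 CPM in HRas TbrKO, against 65.2 and 69.5 CPM in HRas (log2 fold change 1.10 ± 0.12, adjusted p = 0.00646), Ly6a had 900.3 and 641 CPM in HRas TbrKO, against 579.7 and 463 CPM in HRas (log2 fold change 0.55 ± 0.12, adjusted p = 0.0479), and the homeobox gene Irx4 fell to 0.731 and 1.27 CPM in HRas TbrKO, against 3.25 and 3.51 CPM in HRas (log2 fold change -1.79 ± 0.34, adjusted p = 0.032).

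Growth and signalling lists held few calls. Of 27 cell cycle genes, and of 24 genes of Ras, the EGF family and MAPK feedback, 0 were called in either direction by edgeR with TMM scaling and the low-count filter, or by DESeq2 in the same design. With no low-count filter edgeR called 2 cell cycle genes lower, and 2 genes of the Ras list higher and 2 lower. An unadjusted p under 0.05 was found for 4 of the 27 cell cycle genes and 7 of the 24 genes of the Ras list, against 23.2% of all genes tested, and the median log2 fold changes were -0.12 for the cell cycle and -0.06 for the Ras list. Ccnd1, the cyclin of early G1, had 944 and 638 CPM in HRas TbrKO, against 1174 and 912 CPM in HRas (log2 fold change -0.41 ± 0.12, adjusted p = 0.103), and the mitotic enzyme Top2a had 259 and 157 CPM in HRas TbrKO, against 255 and 190.1 CPM in HRas (log2 fold change -0.13 ± 0.13, adjusted p = 0.62). Dusp6, a phosphatase induced by MAPK signalling, had 289.8 and 246 CPM in HRas TbrKO, against 407 and 345 CPM in HRas (log2 fold change -0.49 ± 0.12, adjusted p = 0.0625), with both HRas TbrKO libraries below both HRas libraries. In the Wnt, Notch and BMP list 2 of 27 were called higher and 2 lower, against 4.21% and 1.81% of all genes tested. Id1, a target of BMP signalling, had 82.8 and 62.3 CPM in HRas TbrKO, against 33.8 and 31.8 CPM in HRas (log2 fold change 1.13 ± 0.14, adjusted p = 0.0081), and the Notch ligand Jag1 had 154 and 165 CPM in HRas TbrKO, against 265 and 257 CPM in HRas (log2 fold change -0.71 ± 0.12, adjusted p = 0.0234). Wnt4 rose by 0.84 and the BMP antagonist Grem1 fell by 0.68 on the log2 scale. In the fit of all tumour libraries without the integrin-high HRas library, Grem1 turned to 0.03 by edgeR and 0.06 by DESeq2. That fit takes the gate effect partly from the TbrKO tumours. Within the integrin-low gate alone, Grem1 in HRas TbrKO was 0.675-fold of HRas. Of 20 AP-1 and immediate early genes 1 was called higher (Maff), near the 4.21% of all genes tested. Of 22 genes of NF-kB and Stat3 signalling 3 were called higher, among them Nfkbia, the NF-kB inhibitor. Nfkbia had 928 and 1608 CPM in HRas TbrKO, against 672 and 789.8 CPM in HRas (log2 fold change 0.75 ± 0.16, adjusted p = 0.0452).

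Metabolic lists were led by glycolysis and hypoxia, with 6 of 21 tested members called higher, 0 lower and a median log2 fold change of 0.48. Slc16a3, which exports lactate, had 147 and 282 CPM in HRas TbrKO, against 67.9 and 73.4 CPM in HRas (log2 fold change 1.53 ± 0.20, adjusted p = 0.0101). Ndrg1, a hypoxia-responsive gene, had 519 and 509 CPM in HRas TbrKO, against 294 and 276 CPM in HRas (log2 fold change 0.85 ± 0.12, adjusted p = 0.0117), and the glycolytic enzyme Aldoa had 1892 and 1626 CPM in HRas TbrKO, against 1330 and 1059 CPM in HRas (log2 fold change 0.56 ± 0.12, adjusted p = 0.0414). The groups did not overlap for these 3 genes. Gsta4, a glutathione transferase that clears lipid peroxides, was the member called higher among 18 genes of the Nrf2 list, with 3046 and 2094 CPM in HRas TbrKO, against 1443 and 1061 CPM in HRas (log2 fold change 1.03 ± 0.12, adjusted p = 0.00679). Of 21 genes of cholesterol and fatty acid synthesis 1 was called lower (Scd1), against 1.81% of all genes tested. Of 24 genes of p53, apoptosis and stress 2 were called higher (Casp4 and Pmaip1), against 4.21% of all genes tested.

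Among the genes with the largest changes, Aqp4, a water channel, had 18.0 and 40.7 CPM in HRas TbrKO, against 1.18 and 2.17 CPM in HRas tumours. It was 15.3-fold and 18.8-fold higher in the high and low gate (log2 fold change 4.10 ± 0.21, adjusted p = 0.00218). Fabp4, a fatty acid binding protein listed here as an adipocyte marker, had 526 and 688 CPM in HRas TbrKO, against 127 and 222 CPM in HRas (log2 fold change 1.84 ± 0.15, adjusted p = 0.00322), while the adipocyte genes Adipoq and Plin1 had at most 1.08 and 0.217 CPM and Lep was listed at 0. Ccr3, the receptor for eotaxins, had 11.8 and 21.4 CPM in HRas TbrKO, against 2.00 and 3.14 CPM in HRas (log2 fold change 2.67 ± 0.21, adjusted p = 0.00326), and Bcl2l15, of the Bcl-2 family, had 30.6 and 21.2 CPM in HRas TbrKO, against 3.43 and 4.66 CPM in HRas (log2 fold change 2.66 ± 0.27, adjusted p = 0.00523). All 4 genes had both HRas TbrKO libraries above both HRas libraries.

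Among the genes that fell most, Cnr1, a cannabinoid receptor of neurons, had 1.31 and 1.27 CPM in HRas TbrKO, against 9.88 and 13.3 CPM in HRas (log2 fold change -3.14 ± 0.26, adjusted p = 0.0036). Tmprss3, a membrane serine protease, had 1.85 and 1.13 CPM in HRas TbrKO, against 14.1 and 7.23 CPM in HRas (log2 fold change -2.82 ± 0.25, adjusted p = 0.00403), and Ces1g, a carboxylesterase best known from the liver, had 1.46 and 1.37 CPM in HRas TbrKO, against 14.3 and 6.15 CPM in HRas (log2 fold change -2.77 ± 0.33, adjusted p = 0.00764). Gpa33, an antigen of intestinal epithelium, had 2.81 and 5.70 CPM in HRas TbrKO, against 18.8 and 22.5 CPM in HRas (log2 fold change -2.35 ± 0.24, adjusted p = 0.00546), and Pls1, an actin-bundling protein of microvilli, had 1.77 and 2.49 CPM in HRas TbrKO, against 12.7 and 7.66 CPM in HRas (log2 fold change -2.23 ± 0.34, adjusted p = 0.0155). Slc6a2, the noradrenaline transporter, fell by 2.12, the amino acid transporter Slc38a4 by 2.08, the muscle kinase Speg by 2.00 and the neuronal motor Kif1a by 1.99 on the log2 scale. For each of these genes both HRas TbrKO libraries lay below both HRas libraries.

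The TbrKO tumours of the series, grafted tumours without the HRas label, were set beside both genotypes for the leading genes, with all 6 tumour libraries scaled together. Gbp2 had 51.2 and 89.6 CPM in HRas TbrKO, 192 and 119 CPM in TbrKO and 5.80 and 12.8 CPM in HRas tumours. Krt8 had 87.8 and 109.9 CPM in HRas TbrKO, 35.2 and 95.3 CPM in TbrKO and 243 and 329.7 CPM in HRas tumours. Both TbrKO libraries lay on the HRas TbrKO side of the HRas libraries for these 2 genes. The GTPases were not alike in this. Igtp had 14.2 and 30.5 CPM in HRas TbrKO, 20.9 and 20.6 CPM in TbrKO and 2.12 and 5.05 CPM in HRas tumours. Gbp4 had 11.7 and 27.6 CPM in HRas TbrKO, but 2.29 and 3.52 CPM in TbrKO and 2.74 and 5.90 CPM in HRas tumours. Aqp4 had 18.3 and 39.1 CPM in HRas TbrKO, 0.0789 and 0.0363 CPM in TbrKO and 1.2 and 2.12 CPM in HRas tumours, so it was high in HRas TbrKO tumours alone of the 3. Sprr2f had 46.8 and 194 CPM in HRas TbrKO, 6.67 and 13.6 CPM in TbrKO and 8.25 and 22.2 CPM in HRas tumours. These values are given side by side with no test.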

How the data were processed

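The authors deposited raw counts, whole numbers of reads for each gene symbol. Per the labels' protocols the libraries were TruSeq preparations of total RNA read as single ends, and per the submitters' processing notes STAR and the build mm10 were used. Which program counted the reads, on which annotation and with what strand setting, is not given in the sources used here. All 21 library columns were matched by name and 0 were left unmatched. Of 24061 symbols 23886 were matched to a RefSeq gene (1337 through a synonym). The line of totals and 1098 sex-linked genes were left out, and 14231 genes passed filterByExpr.

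The test was that of edgeR 4.0.16 under R 4.3.3 (TMM, quasi-likelihood F test, gate as block, Benjamini-Hochberg adjustment, threshold 0.05), after a test on simulated data, in which the share of false calls lay above the threshold, and with DESeq2 1.42.0 as an alternative. A standard error is the absolute log2 fold change over the root of its F value. The counts of the 2 gates of a genotype were further apart than sampling noise allows (chi-square over its degrees of freedom 171.2 in HRas TbrKO and 78.8 in HRas).

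The members and gene lists were chosen with earlier results of these data known. The text names genes from the 10 largest called changes in each direction (mean of at least 5 CPM, groups not overlapping), up to 6 called genes per direction and 4 others of each list, the markers and the receptors, and some of these are not reported here. Ifi47, Irgm1, Gbp4, Gbp5, Gbp11, Gvin1, B2m, Krt6a, Krt6b, Krt16, Sprr1a, Il1b, Smad7, Tgfb1, Ctgf, Vim, Ivl, Tgm1, Tgm3, Grhl3, Oas2, Ifng and Ifnb1 were added after their values were seen.

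ATAC peaks were called by the authors with MACS2 2.1.1.20160309 on a pooled paired-end alignment without a control and at a q-value of 0.05, per the file headers. The pileup signal and the fold enrichment, which is a ratio of that signal to its local background, are as deposited. Whether reads were shifted for the transposase is not given in the sources used here.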

Additional observations from a re-analysis of the deposited data

Results flagged for a closer look

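For 6 of the genes that the rule names, the log2 ratio of HRas TbrKO over HRas had opposite signs in the gates, by at least 0.5 in each; the difference was not tested, with 1 library per genotype in a gate. The protease gene Mmp9 had a ratio of -1.27 in the integrin-high gate and 0.94 in the integrin-low gate, and the neutrophil chemokine receptor Cxcr2 had -0.51 in the integrin-high gate and 1.14 in the integrin-low gate. The pericyte genes Rgs5 (-0.53 in the high gate, 0.73 in the low gate), Des (-0.77 in the high gate, 0.77 in the low gate) and Cspg4 (-0.96 in the high gate, 0.88 in the low gate) showed the same pattern. The desmosomal cadherin Dsg1a, of differentiated epidermis, had -0.59 in the high gate and 0.54 in the low gate.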

How the results depend on the processing

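The count of 857 called genes (69.9% of them higher) depended on the design. It was 773 with RLE scaling, 921 with DESeq2, 873 with sex-linked genes kept, 1670 with upper-quartile scaling (57.4% higher), 2296 with no low-count filter (57.7% higher) and 551 at a mean of at least 5 CPM. With edgeR it was 0 without the gate block, 0 with all 6 tumour libraries, and 0 to 0 without each library in turn. DESeq2, tried there after seeing the data, called 246 and 398 genes (75.4% higher). Without the integrin-high and then the integrin-low HRas TbrKO library it called 192 (95.3% higher) and 90 (57.8%), and without the integrin-high and then the integrin-low HRas library 73 (93.2%) and 30 (96.7%). The cause was not tested. The fits without 1 library were of all tumour libraries, so the TbrKO tumours also set their gate effect. In them the log2 fold change of Cldn7 ranged from -0.11 to 1.33, that of Tnc from -1.51 to 0.23 and that of Grem1 from -1.24 to 0.03 by edgeR. By DESeq2 these turned to -0.08, 0.24 and 0.06. Within the gate that kept both genotypes, HRas TbrKO over HRas was 1.51-fold for Cldn7 (low gate), 0.645-fold for Tnc (high gate) and 0.675-fold for Grem1 (low gate). Without the integrin-high HRas TbrKO library the edgeR log2 fold change shrank to 0.07 for Krt19, 0.42 for Spink5, 0.41 for Dsc2, 0.44 for Gsta4, 0.40 for Grhl3, 0.22 for Krt6a, -0.27 for Lgals9, -0.21 for Sparc and -0.37 for Scd1. Without the integrin-low HRas TbrKO library it shrank to 0.70 for Cd274, 0.25 for H2-Q4, 0.54 for Cxcl2, 0.37 for Nfkbia, 0.43 for Maff and 1.09 for Gbp5, and without the integrin-high HRas library to -0.30 for Hmga2. By DESeq2 with all 6 tumour libraries, calls higher and lower were 1 and 1 of the basal genes, 0 and 0 of the adhesion genes, 9 and 0 of the cytokines, 1 and 1 of the proteases, 1 and 1 of the follicle and 0 and 0 of the epidermal stem cell genes, 2 and 0 of the Wnt, Notch and BMP list and 2 and 0 of the glycolysis list. Over all settings the log2 fold change of Gbp2 lay between 2.49 and 3.59. No paired analysis was possible because the labels give no replicate numbers, other than by gate, and the block already compares the genotypes within each gate. Counts below about 10 reads per library limit Tgtp1, Tgtp2 and Gbp10. In the integrin-high HRas library they also limit Ifit3 (8 reads) and Batf2 (4 reads).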
